A study of Rattus norvegicus with 32 samples.

Results

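The 16 dendrite libraries of single rat hippocampal neurons were ranked by their content of 5 astrocyte marker transcripts, and the 8 highest (the upper set) were compared with the 8 lowest (the lower set). All 16 were taken from the 32 libraries of the series, in which each of 16 neurons gave 1 library of its soma and 1 of its dendrites. The ranking used the summed CPM (counts scaled to a common library total of 1000000) of Aldoc, Sparcl1, Mt3, Fabp7 and S100b, with spike-in transcripts left out of the totals. The sets were therefore defined from measured values and are not groups of the study, and the level of these 5 genes in dendrites is a description, with no test.

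The neurons were wildtype Sprague Dawley cells from hippocampus of embryonic day 18, kept in culture for 15 days and labelled as pyramidal. All 32 libraries share this strain, genotype, age and time in culture, and the labels name no treatment. Soma and dendrites were drawn up with separate micropipettes, and their polyadenylated RNA passed 3 rounds of amplification by in vitro transcription before sequencing. The replicate is the single cell. The cells came from several cultures and days, but the labels do not tie a cell to a culture, so a p-value below measures the spread between these cells and no within-culture value could be formed.

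Astrocytes are the glial cells that enwrap synapses, clear glutamate and potassium, and supply neurons with glutamine, lactate and lipoprotein cholesterol. They grow beneath and around neurons in hippocampal cultures, and their thin processes touch dendrites along much of their length. Aldoc encodes a glycolytic aldolase, Sparcl1 a secreted protein that promotes synapse formation, Mt3 a metallothionein that binds zinc, Fabp7 a fatty acid binding protein of radial glia and astrocytes, and S100b a calcium-binding protein. Some neurons also express Mt3, Aldoc and Sparcl1 at lower levels.

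The summed marker level ran from 24.8 CPM in the dendrites of neuron 18 to 1948 CPM in those of neuron 7. In the highest 8 libraries the lowest, median and highest sums were 467, 664 and 1948 CPM, from neurons 7, 25, 26, 28, 22, 13, 21 and 8 in descending order. In the lowest 8 they were 24.8, 220 and 406 CPM, from neurons 14, 23, 20, 27, 15, 9, 11 and 18. The ranking was graded, with no gap at the boundary: neuron 8, the last inside the upper set, had 467 CPM (95% Wilson interval 454 to 481), and neuron 14, the first outside it, had 406 CPM (395 to 417). These intervals cover counting error only, since amplified reads are not independent molecules.

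**Figure D1:**
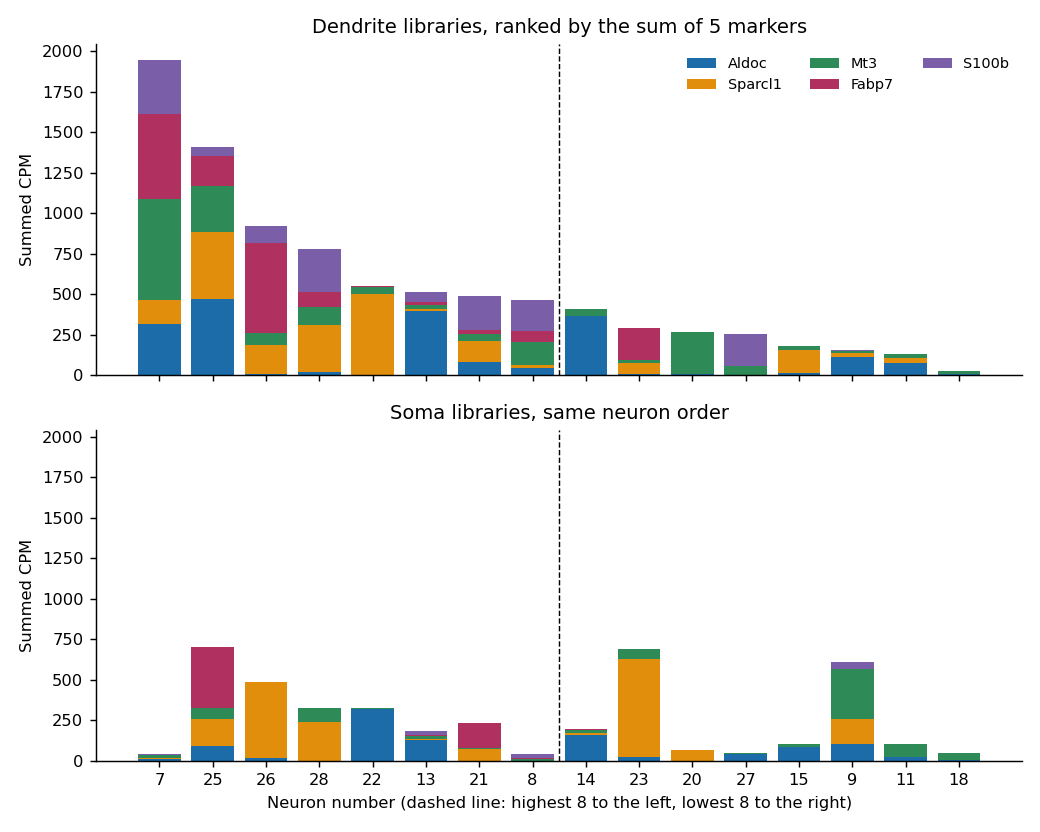
Summed CPM of 5 astrocyte markers (vertical axis, stacked by gene) in each dendrite library (upper panel, ranked) and in the soma library of the same neuron (lower panel). Dendrites of neuron 7 reach 1948 CPM with all 5 genes present, whereas most libraries right of the dashed line hold mainly 1 gene.

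The sets differed in how many markers made up the sum. All 5 markers reached 10 counts in 6 of the highest 8 libraries and in 0 of the lowest 8, where the number per library was 2 to 4. A single gene held over 50% of the summed CPM in 8 of the lowest 8 libraries, with a median share of 74.0%, and in 3 of the highest 8, where the median share was 42.5%. These shares are on the CPM scale, which is not per transcript length. Neuron 14 owed its place to Aldoc, neuron 20 to Mt3 and neuron 27 to S100b, while neuron 22, inside the upper set, owed its place to Sparcl1.

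The markers themselves varied widely within each set. Mt3 reached 10 counts in 8 of 8 libraries of both sets, with medians of 91.8 CPM in the upper and 24.0 CPM in the lower set. Aldoc reached 10 counts in 6 of the highest 8 and 7 of the lowest 8, with medians of 64.1 and 12.1 CPM. Fabp7 divided the libraries most sharply: it lay between 7.47 and 559.9 CPM in the highest 8, and was at 0 in 7 of the lowest 8, the exception being neuron 23 with 201 CPM. S100b reached 10 counts in 7 of the highest 8 and 2 of the lowest 8, and Sparcl1 in 8 and 4. A count of 0 allows up to 3 counts, which is 13.1 CPM in the shallowest dendrite library, that of neuron 25, and at most 2.80 CPM in the other 15.

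Several properties of the libraries moved with the ranking, and their part in the results below was not tested. Gene counts per library were 229149 to 19177322 in the highest 8 (median 2131432) and 4305333 to 24439768 in the lowest 8 (median 16262668). The mean difference was -2.39 on the log2 scale (exact two-sided permutation test, p = 0.00963, adjusted p = 0.0751 over 8 tests). Spike-in transcripts held 0.177% to 0.544% of counts in the highest 8 and 0.138% to 4.33% in the lowest 8, with a mean log2 difference of -0.998 (exact permutation test, p = 0.112, adjusted p = 0.223). When each library was thinned to 1071293 gene counts, which left out neuron 25, genes with at least 5 counts numbered 4486 ± 658 (SD, n = 7) in the upper and 3533 ± 1226 (SD, n = 8) in the lower set. This difference of 952 genes did not pass (exact permutation test, p = 0.0936, adjusted p = 0.223), and the sets overlapped. Without thinning the medians were 5035.5 and 4203 genes (exact permutation test, p = 0.552).

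**Figure D2:**
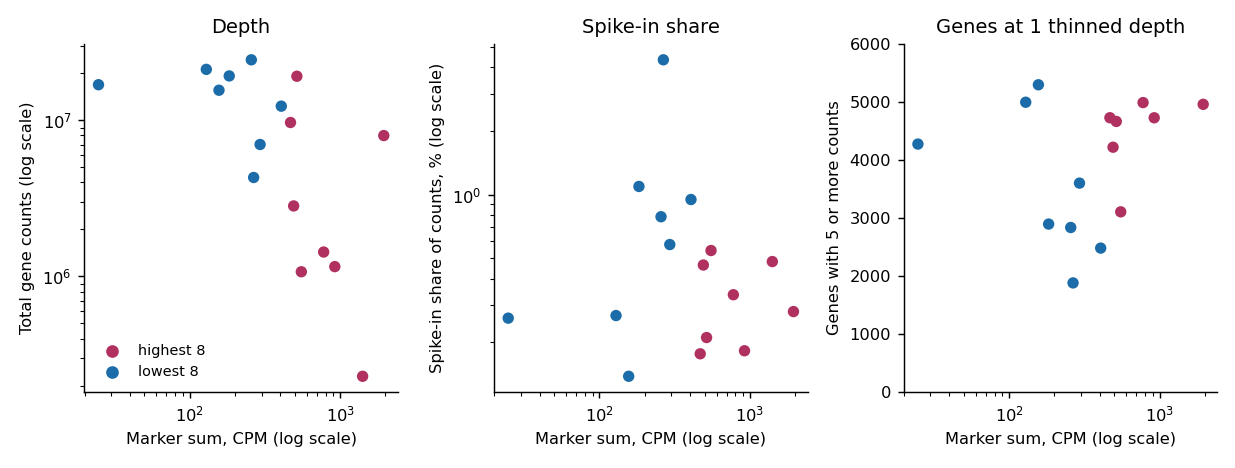
Total gene counts, spike-in share of counts and number of genes with 5 or more counts after thinning (vertical axes) against the summed marker CPM (log scale) for single dendrite libraries. The 5 libraries of lowest depth all belong to the upper set of the ranking, and the sets overlap in each panel.

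One library of the lower set stood apart. The dendrites of neuron 20 had a TMM normalization factor of 0.101, against 0.652 to 1.91 in the other 15, and their spike-in share was 4.33% (95% Wilson interval 4.31 to 4.35%). Cytosolic ribosomal protein genes held 14.9% of their gene counts (14.9 to 15.0%), compared with 2.73% to 5.14% in the highest 8 and 1.86% to 4.98% in the other 7 of the lowest 8. Fitted values for dendrites are therefore given with all libraries and, in brackets or beside them, without this one. The labels of neurons 7, 8 and 9 are also in doubt from earlier values of these data, as to which library belongs to which neuron or compartment. The ranking takes them as labelled, so if labels were exchanged, the libraries of neurons 7 and 8 in the upper set and of neuron 9 in the lower set would not be the dendrites of those neurons. Without these 3 neurons, 0 of 4577 genes passed in dendrites, with 72 on the higher and 293 on the lower side at an unadjusted p under 0.05. The list medians given below were then 0.51 for astrocyte genes, 1.78 for immediate early genes and -0.36 for all genes, and that of inhibitory neuron genes went from 0.09 to -1.78.

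The somata of the same neurons did not enter the ranking, so their marker sums could be compared between the sets. Soma sums were 38.9, 280.0 and 704 CPM (lowest, median, highest) for neurons of the upper set and 48.8, 101 and 690 CPM for those of the lower set. The 2 ranges overlapped almost fully, and the mean log2 difference of 0.54 did not pass (exact permutation test over 8 against 8 neurons, p = 0.477, adjusted p = 0.545). Over the 16 neurons, dendrite and soma sums had Pearson's r = 0.29 and Spearman's rho = 0.26, given as a description because the dendrite sums made the ranking. Leaving out the 2 neurons farthest from the median, 18 and 7, gave r = 0.40.

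These values rested on 3 neurons. The dendrites of neuron 7 held 1948 CPM of the markers and its soma 44.2 CPM, those of neuron 8 held 467 and 38.9 CPM, and neuron 9 went the opposite way with 156 CPM in dendrites and 609 CPM in soma. Without neurons 7, 8 and 9 the soma difference was 1.60 on the log2 scale (exact permutation test, unadjusted p = 0.0268) and the correlation r = 0.74. The doubt about these 3 came from values of these data, and their soma and dendrite sums differed widely. Leaving them out therefore favours agreement, and these values are a description. The dendrite sum exceeded the soma sum in 13 of 16 neurons, by 1.12 ± 1.78 on the log2 scale (SD, n = 16). All 5 markers reached 10 CPM in 6 dendrite libraries and in 0 somata.

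Across the other genes, no single transcript passed the test between the sets. Of 4700 genes tested in dendrites with edgeR's quasi-likelihood test, 0 (0%) had a Benjamini-Hochberg adjusted p under 0.05, and the smallest adjusted p was 0.307. At an unadjusted p under 0.05 there were 65 genes on the higher side (1.38% of those tested) and 378 on the lower side (8.04%). Without neuron 20, 0 of 5111 genes passed (0%), with 68 (1.33%) and 185 (3.62%) at the unadjusted mark. limma-voom also called 0 genes, while 16 passed with DESeq2's Wald test, 4 on the higher and 12 on the lower side. In simulated counts of the same depth and spread, 12% of 100 genes changed by 16-fold and 0% of 100 genes changed by 4-fold were called, so differences of the size described below were mostly not detectable as single-gene calls. The direction of the unadjusted list depended on scaling, on the method and on how the ranking entered the fit. With edgeR it was 115 higher against 64 lower under library totals, and 76 against 412 under DESeq2 size factors. With limma-voom, which kept TMM scaling, it was 358 against 46. With edgeR, TMM scaling and the log2 marker sum as a graded value in place of the 2 sets, it was 34 against 24. The median fitted log2 fold change of all tested genes was -0.25 with edgeR and TMM scaling. It was -0.29 with DESeq2 size factors, 0.27 with library totals and 0.86 with limma-voom. The fitted values below are to be read against the median of their own setting. In the account that follows, values per library therefore come first, and each fitted log2 fold change is the upper over the lower set with TMM scaling.

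Astrocyte genes outside the 5 markers were present in more libraries of the upper set. In samples such as these, more material from cells of a type and more RNA per cell cannot be told apart. Of 33 further astrocyte genes among the deposited rows, 28 reached 10 counts in at least 1 dendrite library. Of these 28, 22 had the higher mean CPM in the highest 8, where 59.3% of 9950 detected genes did. The library count told more: 20 of 28 reached 10 counts in more of the highest 8 than of the lowest 8, against 41.8% of all detected genes, and 3 in fewer, against 32.5%, although the upper set was the shallower one. At an equal depth of 200000 counts, 10 to 23 astrocyte genes (median 18) had a count in the highest 8 and 4 to 15 (median 11) in the lowest 8. All genes moved in the same direction at that depth, with medians of 4969.5 and 3401.5 detected.

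The summed CPM of the astrocyte list without Cpe and Scg3, which encode secretory granule proteins that neurons also express at high levels, was 989, 2942 and 6466 CPM (lowest, median, highest) in the upper set and 643, 1054 and 2060 CPM in the lower set. The sets overlapped in that sum. Those 2 genes were taken out after their values had been seen. With them, the medians were 9126 and 7267 CPM. Of the 14 list members tested, 9 had a positive fitted log2 fold change and the median was 0.43. Without neuron 20, 13 of 18 were positive with a median of 1.29, beside 41.6% of all genes and a median of -0.26. None of these members passed in either fit.

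Apoe, the lipoprotein through which astrocytes export cholesterol, was the member that followed the ranking most closely. It measured 9.54, 53.5 and 212 CPM (lowest, median, highest) in the upper set, where 8 of 8 libraries reached 10 counts, and 0, 0.142 and 38.5 CPM in the lower set, where 2 did. Only neurons 23 and 27 among the lowest 8 came within the upper range. Spearman's rho with the marker sum over 16 libraries was 0.80, and the fitted log2 fold change was 2.51 ± 1.60 (SE), or 2.36 ± 1.70 without neuron 20 (edgeR adjusted p = 0.752 and 0.996).

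Genes for astrocyte membrane proteins were detected in a part of the upper set. Aqp4, the water channel of astrocyte endfeet, reached 10 counts in 6 of the highest 8 and 1 of the lowest 8, with maxima of 69.8 and 12.2 CPM. Slc1a3, the glutamate transporter GLAST, did so in 5 and 1 libraries, with maxima of 436 and 16.9 CPM. Gja1, the gap junction protein connexin 43, did so in 5 and 2, with maxima of 287 and 3.89 CPM. Each of these 3 genes had a median of 0 CPM in the lower set and was at 0 in at least 1 library of the upper set. In the upper set neurons 7, 25 and 28 held most of Slc1a3, while neuron 22 was at 0 for Aqp4, Slc1a3 and Gja1. Slc1a2, the transporter GLT-1 that dominates in mature astrocytes, was at 0 in all of the highest 8 and reached 3.11 CPM in 1 library of the lowest 8.

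The intermediate filament genes of astrocytes behaved alike. Gfap reached 10 counts in 4 of the highest 8 and 1 of the lowest 8, at up to 123 and 5.44 CPM. Vim, also a filament protein of radial glia, mesenchymal cells and reactive astrocytes, measured 0, 34.1 and 92.8 CPM in the upper set, where 6 libraries reached 10 counts, and 0, 0 and 6.97 CPM in the lower set. Its fitted log2 fold change was 4.08 ± 1.87 and 4.44 ± 2.07 without neuron 20 (edgeR adjusted p = 0.499 and 0.989). In all, 5 libraries of the upper set lay above all of the lower set, and 2 were at 0. Of the 12 genes of the reactive astrocyte list, 5 reached 10 counts in any dendrite library, and Lcn2 and Steap4 were at 0 in all 16.

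Astrocyte genes that neurons also express gave mixed values. Clu, a secreted chaperone, had medians of 35.3 and 2.26 CPM (log2 fold change 2.25 ± 1.51, or 1.83 without neuron 20). Glul, glutamine synthetase, had medians of 16.1 and 19.7 CPM and a log2 fold change of 0.63 ± 1.47 (0.60). Cst3, the protease inhibitor cystatin C, measured 342, 820 and 3046 CPM in the upper set and 154, 531 and 1049.6 CPM in the lower, with 3 of the highest 8 above all of the lowest 8. Its fitted log2 fold change was -1.05 ± 0.88 with all libraries and 0.75 ± 0.54 without neuron 20, and its sign turned in 4 of 6 other settings. Atp1b2, a sodium pump subunit and astrocyte adhesion molecule, had medians of 119.8 and 23.1 CPM and a log2 fold change of 2.27 ± 1.14 (1.83), with 5 of the highest 8 above all of the lowest 8. Ntrk2, the BDNF receptor TrkB, which both astrocytes and neurons express, had medians of 449 and 57.1 CPM and a log2 fold change of 1.89 ± 0.94 (1.94). Cpe itself had nearly equal medians, 5659 and 5839.6 CPM, and a log2 fold change of -2.44 ± 0.97 that became -0.37 without neuron 20.

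**Figure D3:**
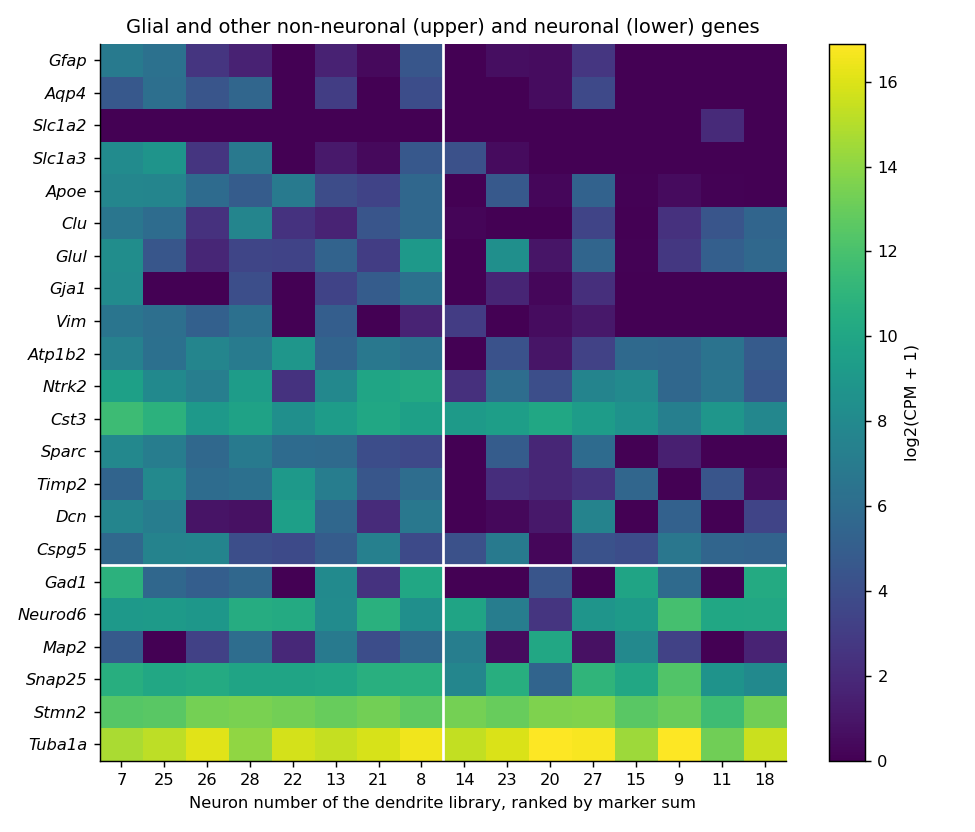
Level of 16 glial, stromal or partly glial genes (above the horizontal line) and 6 neuronal genes (below it) in the 16 dendrite libraries, as log2(CPM + 1), ranked from the highest marker sum on the left. Apoe and Sparc reach 10 counts in all 8 libraries left of the vertical line, Slc1a2 is at 0 in those 8, and the neuronal rows show no step at the line.

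Markers of other non-neuronal cells were sparse. Microglial genes were close to absent, since 2 of 13 reached 10 counts in any dendrite library and 7, Aif1, Cx3cr1, P2ry12, Tmem119, C1qa, C1qb and C1qc, were at 0 in all 16. The summed microglial level was 0 to 28.6 CPM in the upper and 0 to 2.28 CPM in the lower set. Of 10 oligodendrocyte genes 5 were detected, with sums of 0.83 to 75.6 CPM and 0.23 to 34.6 CPM, and Mag, Cldn11 and Opalin were at 0 throughout. Of 9 oligodendrocyte precursor genes 5 were detected and 3 of them, with no exception in the other direction, in more of the highest 8. Of all detected genes 41.8% were. Their sums were 20.7 to 453 CPM and 9.76 to 116 CPM, while Pdgfra, the defining receptor of these cells, was at 0 in all 16. Cspg5, a neural proteoglycan, was the only tested member of that list and had a log2 fold change of 0.40 ± 1.09 (0.16 without neuron 20), which turned negative in 1 of 6 settings. Radial glia and dividing progenitor genes gave sums of 2.76 to 539.5 CPM and 0.23 to 246 CPM. The tested member Pcna, the replication clamp, had -0.07 ± 1.55 (-0.61 without neuron 20). Its sign turned with the setting, with 0.19 under DESeq2 size factors, 0.06 under library totals and -5.20 with depth as a covariate.

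Endothelial, mural and fibroblast genes also reached 10 counts in more libraries of the upper set. Of 16 such genes 10 were detected. Of these, 8 did so in more of the highest 8, against 41.8% of all detected genes, and 1 in fewer, against 32.5%. The list sums were 20.5 to 1039 CPM (median 196) against 0.31 to 499 CPM (median 53.5). The list rested on Sparc, a matrix glycoprotein that astrocytes also secrete, and Dcn, the fibroblast proteoglycan decorin. Sparc measured 11.97, 56.7 and 238 CPM in the upper set and 0, 0.929 and 59.9 CPM in the lower, and followed the marker sum with rho = 0.80. Dcn ran from 0.698 to 737 CPM (median 78.9) and from 0 to 188 CPM (median 0.723), with the highest level in neuron 22. That library was at 0 for Aqp4, Slc1a3 and Gja1 but had the highest Atp1b2 level of all 16, at 470 CPM. Cldn5, Rgs5 and Vtn, which mark endothelium, pericytes and mural cells, were at 0 in all 16. The log2 fold changes of Sparc and Dcn were 1.74 ± 1.61 and 1.69 ± 1.71, or 1.85 and 1.35 without neuron 20.

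Secreted matrix and growth factor-binding proteins formed a further list. Of its 19 detected genes 13 reached 10 counts in more of the highest 8 and 2 in fewer, against 41.8% and 32.5% of all detected genes. Timp2, a metalloproteinase inhibitor, measured 21.6, 70.3 and 574 CPM in the upper set and 0, 3.06 and 47.1 CPM in the lower, with 6 of the highest 8 above all of the lowest 8 and a log2 fold change of 3.42 ± 1.45 (3.36 without neuron 20; edgeR adjusted p = 0.423 and 0.989). Igfbp2, which binds insulin-like growth factors, had medians of 49.3 and 0.214 CPM, but neuron 20 alone held 3389.5 CPM. Its fitted value accordingly went from -5.46 ± 2.42 to 5.43 ± 2.004 when that library was left out. The genes of the list that were tested had a median log2 fold change of 0.35 and, without neuron 20, 0.75.

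Transcripts of the astrocyte glutamate, glutamine and lactate pathway gave no single direction. Of 16 detected members 10 reached 10 counts in more of the highest 8 and 3 in fewer, against 41.8% and 32.5% of all detected genes. Of 9 tested members 2 were positive, with a median of -0.28, or -0.50 without neuron 20. Of all tested genes 42.7% were positive. Under limma-voom 7 of 9 members were positive, with a median of 1.88. There 3363 of all 4700 genes were positive, with a median of 0.86. Glud1, glutamate dehydrogenase, had medians of 322 CPM in the upper and 734 CPM in the lower set and a log2 fold change of -1.56 ± 0.78. Ldha, lactate dehydrogenase A, had medians of 1090.1 and 2198 CPM and -1.17 ± 0.66. Both were lowest in neuron 20, at 8.36 and 79.4 CPM, and without it the values were -1.70 ± 0.66 and -1.43 ± 0.41 (edgeR adjusted p = 0.899 and 0.596). Gys1, glycogen synthase, was above 10 counts in 4 and 2 libraries and its sign turned in 2 of 6 settings.

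Genes of cholesterol synthesis, a pathway active in both astrocytes and young neurons, showed 6 positive and 12 negative fitted values among 18 tested, with a median of -0.41, or -0.59 without neuron 20. Sqle, squalene epoxidase, measured 30.0, 239.7 and 1226 CPM in the upper set and 22.1, 1114 and 4416 CPM in the lower, with a log2 fold change of -2.08 ± 0.88 (-2.23). Nsdhl, a sterol dehydrogenase, had -2.65 ± 1.40 (-2.36). Srebf2, the transcription factor that drives these genes, had the opposite sign, with medians of 702 and 285 CPM and 1.45 ± 0.75 (1.14). The sets overlapped for all 3 genes, and none of them passed.

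Neuronal transcripts were plentiful in both sets. The 24 pan-neuronal genes summed to 19572 to 46561 CPM in the upper set (median 29700.1) and 13221 to 30107 CPM in the lower (median 24469). Their tested members had a median log2 fold change of -0.53, of -0.16 without neuron 20 and of 0.38 under library totals, so their direction turned with the scaling. Stmn2, a microtubule-destabilizing phosphoprotein of neurons, had medians of 9011 and 9064 CPM, with ranges of 5646 to 11335 and 3202 to 13492 CPM. Snap25, a SNARE protein of synaptic vesicle release, had medians of 1195 and 764 CPM and a log2 fold change of -0.60 ± 0.76 (-0.83 without neuron 20), whose sign turned in 1 of 6 settings. Tuba1a, the main neuronal alpha-tubulin, had medians of 50035 and 55925 CPM, and a log2 fold change of -2.32 ± 0.96 (-0.73). Map2, the classical dendritic microtubule protein, was low in most libraries, with medians of 20.6 and 5.67 CPM, and reached 1139.5 CPM in neuron 20. Its log2 fold change of -5.59 ± 1.92 became -0.91 ± 1.58 without that library.

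Nsg1, an endosomal protein of neurons involved in receptor recycling, was the pan-neuronal gene that divided the sets most. It measured 1484, 4004 and 10727 CPM in the upper set and 115, 1124 and 2554 CPM in the lower, with 6 of the highest 8 above all of the lowest 8. Its log2 fold change was 1.45 ± 0.71, or 1.22 ± 0.45 without neuron 20 (edgeR adjusted p = 0.538 and 0.830).

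The labelled cell type was checked in both sets. Neurod6, a transcription factor of pyramidal neurons, measured 279, 559 and 1679 CPM in the upper set and 5.11, 751 and 3767 CPM in the lower, lowest in neuron 20. The 8 tested pyramidal genes had a median log2 fold change of -0.58, with 3 positive, and of -0.88 without neuron 20. Among them Bcl11b, a transcription factor of forebrain neurons, had -1.21 ± 0.87 (-1.38), and Nrgn, the postsynaptic protein neurogranin, had 3.22 ± 1.499 (3.08) with medians of 21.9 and 0.662 CPM. Slc17a7, the vesicular glutamate transporter, did not reach the filter.

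Inhibitory neuron genes were found in more libraries of the upper set. All 13 detected members of 15 reached 10 counts in more of the highest 8, against 41.8% of all detected genes. Their levels were mostly low, with median sums of 467 and 259 CPM. At 200000 counts the median number with a count was 6.5 in the upper and 2 in the lower set. For all genes these medians were 4969.5 and 3401.5. Of 4 tested members 2 had a positive fitted value, with a median of 0.09. Without neuron 20, 2 of 6 were positive with a median of -0.15. Under limma-voom 4 of 4 were positive with a median of 2.54, where all genes had 0.86. Gad1, the GABA-synthesizing enzyme, stood at 1833 and 1069 CPM in neurons 7 and 8 of the upper set and at 923 and 1306 CPM in neurons 15 and 18 of the lower set, where Neurod6 measured 542, 337, 586 and 1123 CPM. Its medians were 48.4 and 10.7 CPM and its log2 fold change 0.24 ± 1.66 (0.086 without neuron 20). Calb2 and Cck, a calcium-binding protein and a neuropeptide of interneurons, had 0.42 ± 1.71 and -1.23 ± 1.29 (-0.015 and -1.45), and both signs turned in at least 1 setting.

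**Figure D4:**
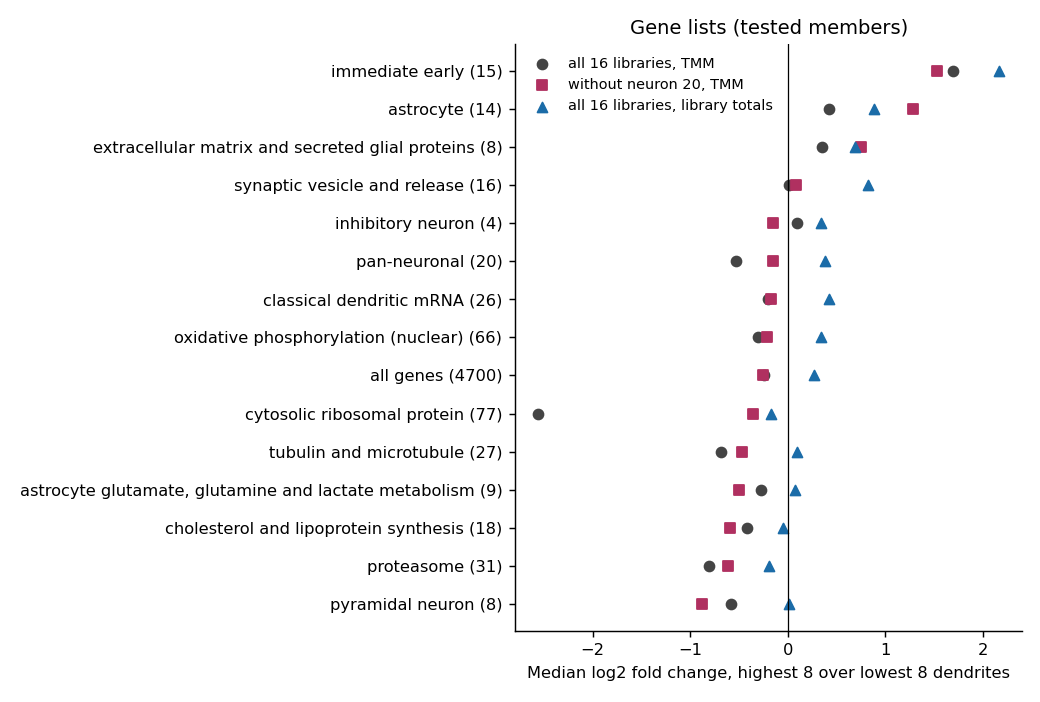
Median fitted log2 fold change (highest 8 over lowest 8 dendrites) of the gene lists with at least 4 tested members, with the number tested in brackets, for all libraries, without neuron 20 and with library totals as scaling. Immediate early and astrocyte genes lie to the right of all genes in the 3 settings. So do the secreted matrix, synaptic vesicle, classical dendritic mRNA and inhibitory neuron lists. Ribosomal protein genes move from -2.56 to -0.36 when neuron 20 is left out.

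Immediate early genes, which code for transcription factors and signalling proteins induced quickly by activity or stress, had the highest median with all libraries and TMM scaling among the lists with at least 4 tested members, while under limma-voom the secreted matrix list was higher, at 3.74 against 2.55. Of 15 tested members 14 were positive with a median of 1.69, and 14 of 15 with a median of 1.53 without neuron 20. Their summed CPM was 1049.6, 2098 and 4229.6 in the upper set and 31.4, 581 and 1042 in the lower. The 2 ranges were parted by a narrow gap, between 1049.6 and 1042 CPM. Counting error was not taken into account, so this separation is not established. In somata of the same neurons, 8 of 14 tested members were positive, where 48.9% of all genes tested in somata were, with a median of 0.61. Jund, an AP-1 subunit, measured 102, 465 and 1509 CPM in the upper and 2.55, 61.2 and 183 CPM in the lower set, with 7 of the highest 8 above all of the lowest 8 and a log2 fold change of 2.32 ± 0.79, or 2.09 without neuron 20 (edgeR adjusted p = 0.308 and 0.803). Jun, a further AP-1 subunit, had medians of 123 and 4.44 CPM and 2.66 ± 1.37 (2.24). Nr4a3, an orphan nuclear receptor, had medians of 96.7 and 0.407 CPM and 2.73 ± 1.62 (2.38).

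Transcripts of known dendritic localization gave a mixed picture. Of 26 tested genes of that list 10 were positive, with a median of -0.21, or -0.17 without neuron 20. Calm3, Eef2 and Eef1a1, a calmodulin gene and 2 translation elongation factors, had fitted values between -4.18 and -2.94, which became -0.82, -0.86 and -0.78 without neuron 20. Synaptic vesicle genes had a median of 0.0078, or 0.08 without neuron 20, with 8 of 16 positive. Among them Sv2a, a vesicle glycoprotein, had medians of 262 and 60.3 CPM, while Pclo, the active zone scaffold piccolo, had 0.052 and 3.28 CPM.

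The values of the large shared gene groups varied with neuron 20, with the scaling or with the method. Of 77 tested cytosolic ribosomal protein genes 76 were negative with a median of -2.56, and 56 had an unadjusted p under 0.05. Without neuron 20, 51 of 77 were negative with a median of -0.36, and 1 had an unadjusted p under 0.05. Rpl5 measured 506 to 1505 CPM in the upper set, 788.9 to 1544 CPM in 7 of the lowest 8 and 11119 CPM in neuron 20. Oxidative phosphorylation genes had medians of -0.31 and -0.21 with and without it. Under library totals and under limma-voom they had 0.34, where all genes had 0.27 and 0.86. Proteasome genes had medians of -0.81 and -0.61, with 25 of 31 and 24 of 31 negative. They had -0.19 under library totals and 0.08 under limma-voom, below all genes in both. Tubulin and microtubule genes had -0.68 and -0.47, and 0.09 under library totals. Reads of these gene families may be shared with near-identical copies, and their treatment in the authors' counting is unknown here.

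Of 4700 genes, 4 (0.0851%) had all of the highest 8 libraries above all of the lowest 8, and 0 had the reverse. All 4 were chosen on their values, Pcp4 and Cfl1 also by the naming rule, which itself uses the fit and the correlation. Pcp4, a calmodulin-binding peptide of neurons, measured 291, 631 and 1620.5 CPM in the upper set and 0.059, 34.7 and 108 CPM in the lower, with a log2 fold change of 3.22 ± 1.04 and 3.77 ± 1.04 without neuron 20 (edgeR adjusted p = 0.307 and 0.567). Cfl1, the actin-severing protein cofilin, measured 401, 606 and 1001 CPM and 26.9, 297 and 392 CPM, with 0.81 ± 0.60 (0.64 without neuron 20). Its gap, between 401 CPM in neuron 26 and 392 CPM in neuron 14, was narrow. Counting error was not taken into account, so this separation is not established. Tomm7, a subunit of the mitochondrial import pore, measured 97.0, 169.9 and 1044 CPM and 0.405, 39.0 and 75.0 CPM, with 2.72 ± 0.96 (2.50). Babam1, a subunit of a BRCA1 deubiquitinase complex, stood at 3.49 to 227 CPM and 0 to 3.02 CPM, with 3.37 ± 1.57 (5.45). Its separation is not established, since the 4.36 CPM of neuron 25 is 1 count and lies under the 13.1 CPM that a count of 0 allows there.

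**Figure D5:**
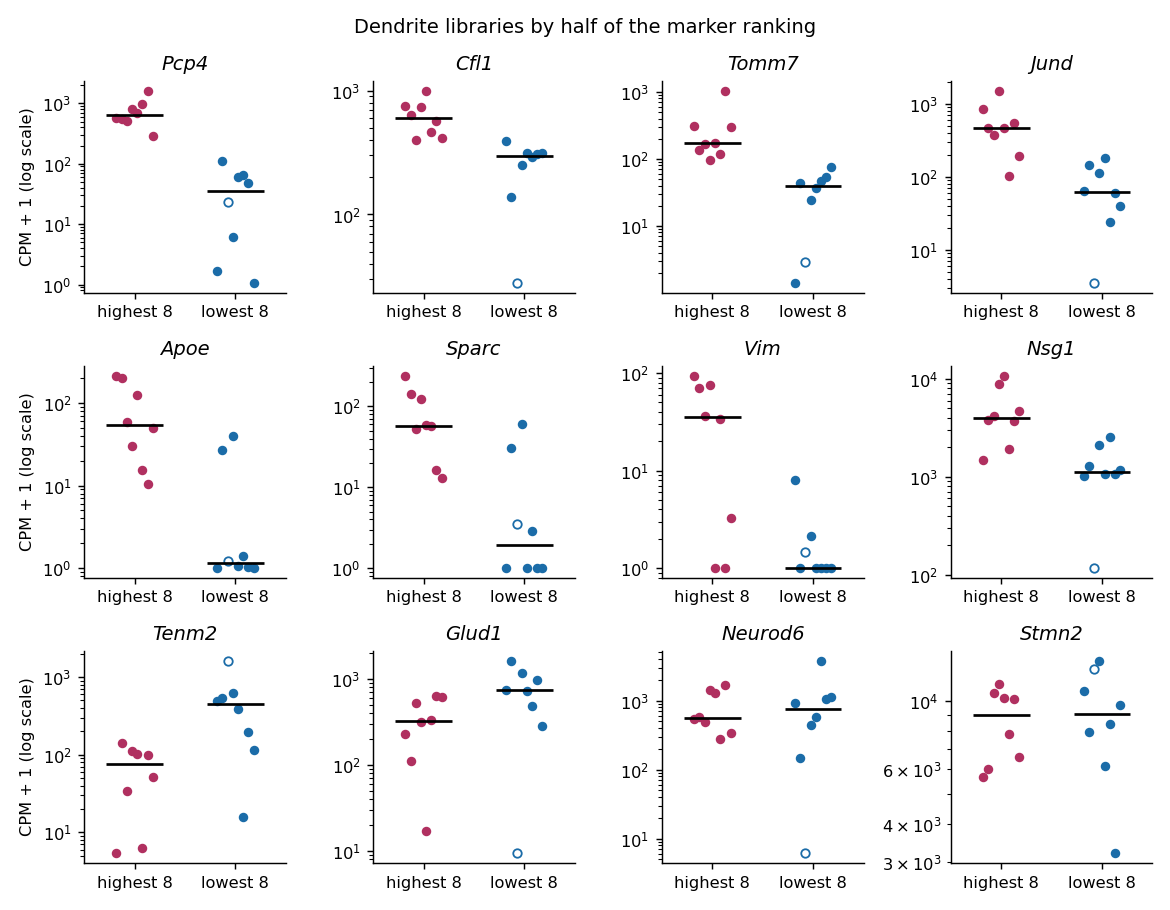
CPM + 1 (log axis) of 12 genes in the highest 8 and the lowest 8 dendrite libraries; each point is 1 library, the open point is neuron 20, and the black line is the median. Pcp4 and Tomm7 do not overlap between sets, and Cfl1 is parted only by a narrow gap. Apoe, Sparc and Vim are near 0 in most of the lowest 8, and Stmn2 has almost equal medians.

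The genes with the smallest unadjusted p were mostly sparse or governed by neuron 20. On the higher side, besides Pcp4 and Jund, these were Myadm, Vps52 and Tcte1, each with at least 10 counts in 5 of the highest 8, and with medians of 16.8, 14.6 and 5.36 CPM. On the lower side they were Scaf8, Tenm2, Qdpr, Arf2 and Dab1, all highest in neuron 20. Tenm2, a synaptic adhesion protein, measured 4.38, 74.5 and 139.6 CPM in the upper set and 14.9, 444 and 1613 CPM in the lower, with a log2 fold change of -5.48 ± 1.32 that became -2.97 ± 0.93 without neuron 20. Qdpr, a pteridine reductase, went from -5.85 ± 1.41 to -1.54 ± 0.70.

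The pattern most like the marker sum, by Spearman correlation over 16 libraries, belonged to Gapdh (rho = 0.83), the glycolytic enzyme often used as a reference gene. It was followed by Sparc, Apoe, Ppp1r9b (0.80), the spine protein spinophilin, Jund (0.80), Psd (0.78), a postsynaptic exchange factor, Cfl1 (0.78) and Ndufa2 (0.77), a complex I subunit. Gapdh had medians of 589.8 and 289 CPM, yet its fitted log2 fold change was -0.98 ± 0.79 (0.38 without neuron 20) and its sign turned in 4 of 6 settings. The lowest correlations were those of Mark3 (-0.69), Exoc6 (-0.64), Ppp1r10 (-0.64) and Jakmip2 (-0.63). All points share library depth and composition, and no p is given because these genes were selected on the correlation itself.

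When somata of the same neurons were compared by the dendrite ranking, 1 of 4745 genes (0.0211%) passed, and 74 (1.56%) and 44 (0.927%) lay on the higher and lower side at an unadjusted p under 0.05. Elac2, a tRNA-processing endonuclease, had a median of 16.9 CPM in somata of the upper set, where 8 of 8 reached 10 counts, and of 0 CPM in those of the lower set, where 0 of 8 did (log2 fold change 10.26 ± 1.77, edgeR adjusted p = 0.0413). The call did not survive the removal of any one of the 16 somata, with an adjusted p of 0.0660 to 0.216. In dendrites Elac2 had -1.52 ± 1.76 (-1.73 without neuron 20). The 13 tested astrocyte genes had a median of 0.01 in somata, with 7 positive. The difference between dendrites and somata in this contrast, tested with the neuron as a block, gave 0 calls among 6790 genes (0%), with 78 genes on the higher (1.15%) and 114 on the lower side (1.68%) at an unadjusted p under 0.05. limma-voom also gave 0 and DESeq2's Wald test 554.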

How the data were processed

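For each library the authors deposited raw counts per gene symbol, in whole numbers, over 17216 gene rows and 92 spike-in rows. The submitters' processing notes name build rn6. Not given in the sources used here: aligner, annotation, strand handling and treatment of shared reads. The marker genes, the gene lists and the rule for naming genes were chosen with earlier results of these data known.

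CPM used gene totals without spike-in rows. Genes passing filterByExpr (minimum count 10) were fitted in R 4.3.3 with edgeR 4.0.16 (TMM, glmQLFit robust, glmQLFTest, Benjamini-Hochberg threshold 0.05), leaving out the 5 markers. The genes tested held 91.1% to 97.1% of counts. SE was taken as the absolute log2 fold change divided by the root of the F statistic. Single values were tested on log2(CPM + 1) with exact permutation tests (scipy 1.17.1), whose smallest p with 8 against 8 is 0.000155, and correlations are given without p. Alternatives used DESeq2 1.42.0 and limma 3.58.1, other scalings, filters and rankings, depth as a covariate, thinned counts and single libraries left out. The fits were tested on simulated data.

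Named genes were the 5 markers, the 5 genes per direction with the smallest unadjusted p, up to 3 tested members per list, 16 fixed genes, the 8 highest and 4 lowest correlations with the marker sum, and calls in somata. Some genes that this rule gives are not described in the text.

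The series text gives soma and dendrites of 1 number to 1 cell. The mean correlation of their centred profiles was 0.0628 within neurons and -0.0019 between neurons, and 2 of 16 neurons exceeded 0.1. As a check for duplicate deposits, no 2 dendrite libraries agreed within counting error (chi-square over its degrees of freedom at least 64.1). This covers counting error of amplified reads only.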

Additional observations from a re-analysis of the deposited data

Results flagged for a closer look

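In 20 of 164 groups of 8 libraries examined, 1 library lay far from the other 7, measured as its gap to the nearest of them over the range of the 8 (log2(CPM + 1) for genes). Chance gives about 1 in 20 such groups.

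Neuron 20 was that library in the lowest 8 for 9 genes. It was the highest for Qdpr (0.573), Igfbp2 (0.678), Rpl5 (0.746) and Atp5l (0.548), an ATP synthase subunit. It was the lowest for Nsg1 (0.703), Glud1 (0.660), Ldha (0.647) and Cfl1 (0.607), and also for Cspg5 (0.566).

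In the lowest 8, neuron 27 stood highest for Gfap (0.758) and Aqp4 (0.852), neuron 14 for Vim (0.632) and Slc1a3 (0.876), neuron 11 for Slc1a2 (1), neuron 9 for Nrgn (0.578) and neuron 15 for Gys1 (0.576). In the highest 8, neuron 25 stood highest for Tcte1 (0.553) and Ppp1r9b (0.623). Neuron 22 stood lowest there for Ntrk2 (0.608) and for the number of genes with 5 or more counts after thinning (0.592).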

How the results depend on the processing

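The upper set holds the shallowest libraries, and in simulated counts of this depth and spread 0% of 4-fold changes were called; depth and spread were not separated. Without neurons 7, 8 and 9 the soma marker difference was 1.60 and the correlation 0.741. The difference in thinned gene number was 1507 genes at 1 count (exact permutation p = 0.0177). Calls in dendrites numbered 1509 with no filter, 16 with DESeq2's Wald test and 4 with depth as a covariate (Plscr3, Taf1d, Tenm2 and Uspl1, all lower). Calls in somata numbered 0 with library totals, no filter, the stricter filter and the depth covariate, 26 with DESeq2's Wald test and 2 with limma-voom. Calls for the difference between compartments numbered 1 with no filter and 554 with DESeq2's Wald test. The cause was not tested. Leaving out 1 neuron at a time gave 0.29 to 0.88 for the soma marker difference and 0.83 to 1.32 for dendrites minus soma, and 0 calls in dendrites and somata. With no replicate block the dendrites minus soma difference was also 1.12, and the compartment difference gave 0 calls. The fit on counts thinned to 200000, chosen after seeing the data, also called 0 genes in dendrites. Of 72 named tested genes, 13 changed sign in at least 1 of 6 settings.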
